A study of Homo sapiens with 6 samples.

Results

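The 10 genes described here carry iron across membranes, release it from ferritin or sense it inside the cell, and they were chosen by name from the 61496 features of the deposited table. They are SLC40A1, CP, SLC11A2, SLC39A14, SLC39A8, STEAP3, NCOA4, ACO1, IREB2 and FBXL5, and each symbol matched 1 Ensembl identifier. The study profiled U251, an established human glioma cell line grown in DMEM with serum. It compared 3 libraries of untreated cells (Control) with 3 libraries of cells exposed to sevoflurane gas (Sev), a volatile anesthetic, for 2 h. The treatment protocol of the labels lists Sev at 1.7%, at 3.4% and at 5.1% without assigning any of them to a library, and the highest is the one that the study's text gives for its expression profile. No label says that the 3 libraries of a group came from separate cultures, so the p-values measure the spread between libraries, which may be technical.

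Iron enters most cells bound to transferrin, is reduced in the endosome by STEAP3 and leaves the endosome through SLC11A2 (DMT1), while SLC39A14 (ZIP14) and SLC39A8 (ZIP8) also carry iron that is not bound to transferrin. Surplus iron is stored in ferritin, NCOA4 delivers ferritin to the autophagosome for breakdown (ferritinophagy), and SLC40A1 (ferroportin) exports iron with the help of the copper oxidase CP (ceruloplasmin). The regulatory proteins ACO1 (IRP1) and IREB2 (IRP2) bind a hairpin called the iron responsive element when iron is low, and FBXL5, an iron-binding subunit of a ubiquitin ligase, has IREB2 degraded when iron is high. A bound element in the 5′ UTR blocks translation, and bound elements in the 3′ UTR of TFRC protect its mRNA. In ferroptosis, the cell death that the study addresses, iron drives lipid peroxidation.

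The elements are shown because they tie the sensing genes ACO1, IREB2 and FBXL5 to the transport and storage genes below. GENCODE 29 transcripts were searched on the sense strand for an unpaired C, 5 bases, the loop CAGTGN with its last base not G, and 5 bases that pair with the 5 before the loop, G-T pairs allowed. A second search allowed 1 unpaired base in the 3′ arm. Capitals mark the loop, and 5 flanking bases are printed on each side, as DNA of the sense strand.
SLC40A1, 5′ UTR: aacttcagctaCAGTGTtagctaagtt
FTH1, 5′ UTR: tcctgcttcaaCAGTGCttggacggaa
FTL, 5′ UTR: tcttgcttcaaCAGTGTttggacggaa
TFRC, 3′ UTR: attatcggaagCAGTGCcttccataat
SLC11A2, 3′ UTR: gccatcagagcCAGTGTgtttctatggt
On GRCh38 these lie at chr2:189580662-189580688 (minus strand), chr11:61967575-61967601 (minus strand), chr19:48965336-48965362 (plus strand), chr3:196050980-196051006 (minus strand) and chr12:50988269-50988296 (minus strand), in that order. The first 4 matched the strict form, which 230 of 19922 protein-coding genes (1.15%) held in a transcript, and TFRC held 4 such matches, of which 1 is printed. The SLC11A2 site was found with the unpaired base allowed, a form that 504 genes (2.53%) held, and it was present in 7 of 25 coding transcripts of SLC11A2. That form was also found in the 3′ UTR of 1 of 7 coding transcripts of IREB2. The SLC40A1 site was in 1 of 5 coding transcripts. Matches were not listed for SLC39A14. Reads were counted per gene, so transcripts with and without an element were not measured apart.

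The libraries held between 38624292 and 46318311 counts. Values within a gene are given as CPM, counts per library scaled to a common total with TMM factors, and levels between genes as the deposited FPKM, which are also scaled by length. Within a group, pairs of libraries differed beyond counting noise in 49% to 66.5% of 15608 genes with a mean count of at least 100, and none of them was a copy. Of 12 markers of glioma and astrocytes, 10 were at 10 CPM or more on average, VIM and GFAP among them, OLIG2 was at 2.39 CPM in Control, and AQP4 was at most 0.429 CPM. Of the 11 tested, CD44 was called higher in Sev (log2 fold change 0.97), and SOX2 (−0.72), S100B (−1.10), NFIA (−1.98) and OLIG2 (−1.99) were called lower. Of 15 markers of other cell types, PTPRC, EPCAM, CDH1 and AIF1 stayed under 0.3 CPM in every library, and AIF1 was at 0. The other 11 were tested, and 10 of them were at 1 CPM or more on average, with KRT18 the highest at 20.2 to 30.9 CPM. KRT18, CSF1R, PECAM1 and MBP were called higher in Sev (log2 fold changes 0.49, 0.72, 0.92 and 1.01) and 0 of the 11 were called lower. The summed CPM of these 15 was 47.9 to 54.3 in Control and 59.8 to 71.1 in Sev, and the part of either marker list in the results below was not tested.

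Of the 9 members that passed the expression filter, 2 rose and 3 fell under Sev with an adjusted p-value under 0.05 by edgeR's quasi-likelihood test. STEAP3 and NCOA4 rose, and SLC11A2, FBXL5 and CP fell. The share called, 5 of 9, stands beside the 43.7% called among all 27514 tested features, and the 45.9% called among tested protein-coding genes, so it is near the background of this comparison. Of all tested features, 22.1% were called higher and 21.5% lower. CP alone also passed the threshold that the study's methods use, an absolute log2 fold change above 1 at an unadjusted p-value below 0.05, which 23.5% of all tested features passed. The median log2 fold change was 0.16 over the 9 members and −0.0056 over all tested features. With libraries scaled by their size only, without TMM factors, these medians were 0.024 and −0.15. SLC40A1 did not pass the filter. Fewer cells of a kind and less RNA per cell cannot be told apart in such bulk libraries.

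**Figure D1:**
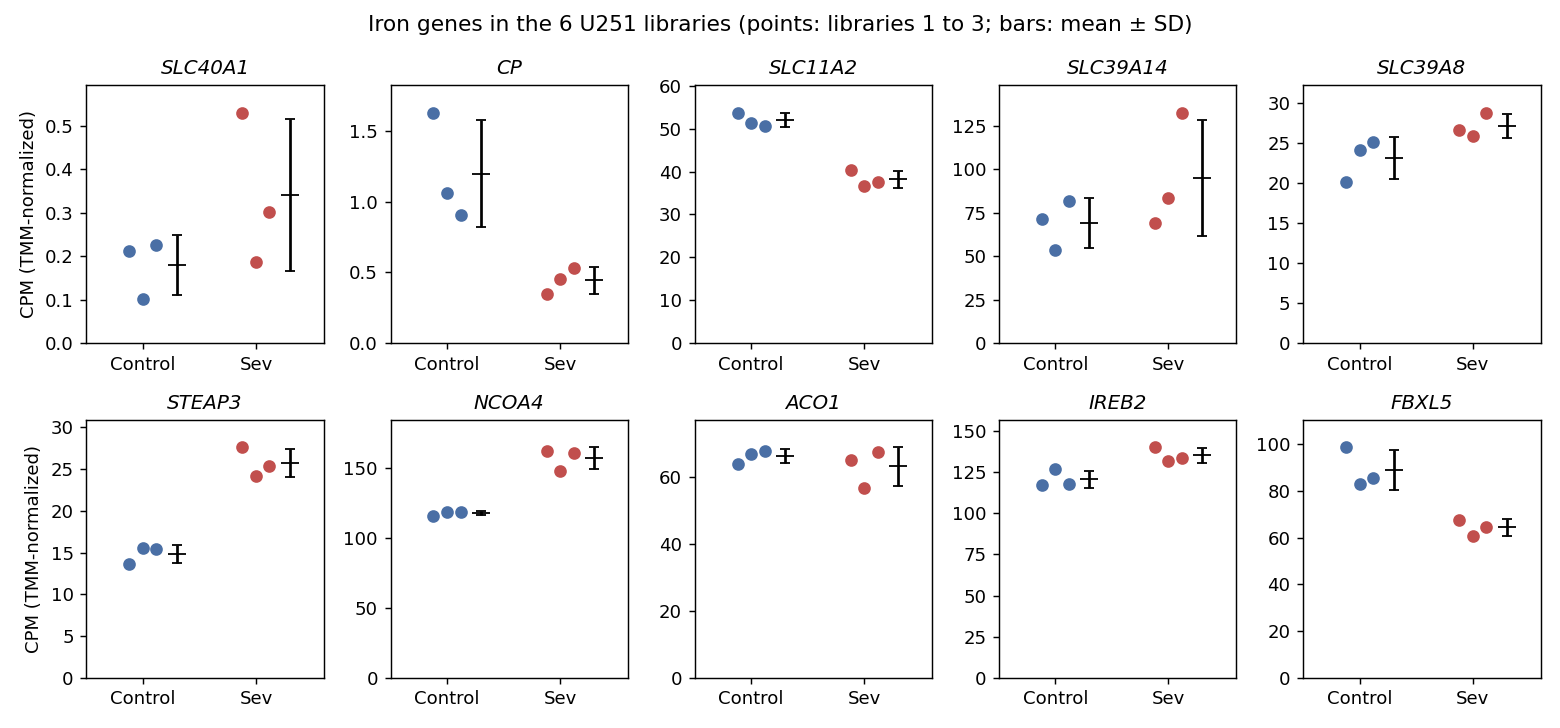
TMM-normalized CPM of the 10 iron genes, with a panel for each gene, a linear vertical axis from 0 and a point for each of the 3 Control and 3 Sev libraries, beside the mean ± SD of the group. STEAP3, NCOA4, IREB2 and SLC39A8 lie higher in every Sev library than in any Control library, of which IREB2 and SLC39A8 were not called, and SLC11A2, FBXL5 and CP lie lower.

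The endosomal pair moved in opposite directions. STEAP3, the reductase that turns ferric into ferrous iron (ENSG00000115107, chromosome 2, 119223831 to 119265652, GRCh38), was at 13.6, 15.5 and 15.4 CPM in Control and at 27.6, 24.2 and 25.4 CPM in Sev. All 3 Sev libraries were above all 3 Control libraries. It rose 1.73-fold (95% interval 1.46 to 2.06), a log2 fold change of 0.79 with a standard error of 0.11 (adjusted p = 0.00109, edgeR's quasi-likelihood test). This was the largest rise among the 9 tested members. With libraries scaled by their size only, without TMM factors, the log2 fold change was 0.65 and the gene was still called (adjusted p = 0.00276, edgeR). STEAP3-AS1, an antisense RNA that shares 500 exon bases with it, had 30 to 68 counts per library, against 575 to 1040 for STEAP3, and did not move with it (log2 fold change −0.47, adjusted p = 0.288, edgeR).

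SLC11A2, the transporter that moves ferrous iron out of the endosome and into the cell (ENSG00000110911, chromosome 12, 50979401 to 51028566, GRCh38), was at 53.8, 51.4 and 50.7 CPM in Control and at 40.2, 36.5 and 37.6 CPM in Sev. The groups did not overlap, and the spread within each was small, with means of 51.9 ± 1.62 and 38.1 ± 1.90 CPM (SD, n = 3). The gene fell 1.36-fold, a log2 fold change of −0.45 with a standard error of 0.082 (adjusted p = 0.00394, edgeR's quasi-likelihood test). Within a library, the FPKM of STEAP3 was 0.548, 0.655 and 0.660 times that of SLC11A2 in Control and 1.49, 1.44 and 1.47 times in Sev. By FPKM, the pair thus went from less STEAP3 than SLC11A2 in every Control library to more in every Sev library. In CPM, which is not scaled by length, SLC11A2 stayed above STEAP3 in every library, with means of 38.1 and 25.7 CPM in Sev. The FPKM ratio does not depend on how libraries are scaled, and it was chosen after the values were seen and carries no test.

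The zinc and iron importers of the SLC39 family were not called. SLC39A14 (ENSG00000104635, chromosome 8, 22367249 to 22434129, GRCh38) was at 71.7, 53.5 and 81.9 CPM in Control and at 69.1, 83.7 and 133 CPM in Sev. The groups overlapped, and Sev replicate 3 stood far above the other libraries. Its log2 fold change was 0.46, with a 95% interval from −0.11 to 1.04 (adjusted p = 0.168, edgeR). Without Sev replicate 3 it was 0.15, and without Sev replicate 1 it was 0.65 (adjusted p = 0.0752, edgeR).

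SLC39A8 (ENSG00000138821, chromosome 4, 102251041 to 102431258, GRCh38) was lower and steadier, at 20.2, 24.1 and 25.2 CPM in Control and at 26.7, 25.9 and 28.9 CPM in Sev. The groups lay apart by less than 1 CPM, and the log2 fold change was 0.23 with an interval from −0.034 to 0.49 (adjusted p = 0.139, edgeR). With a library left out, the log2 fold change ran from 0.13 to 0.29. On the deposited FPKM, which hold no TMM factor, the groups overlapped. AC098487.1, which shares 197 exon bases with it on the same strand, had 3 to 17 counts. The FPKM of SLC39A14 exceeded that of SLC39A8 in all 6 libraries, by 2.07 to 3.31 times in Control and by 2.42 to 4.30 times in Sev.

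NCOA4, the cargo receptor for ferritin (ENSG00000266412, chromosome 10, 46005088 to 46030714, GRCh38), was the most abundant member per length. It was at 116, 119 and 119 CPM in Control and at 162, 148 and 161 CPM in Sev, and the groups lay well apart. It rose 1.33-fold (95% interval 1.19 to 1.50), a log2 fold change of 0.41 with a standard error of 0.073 (adjusted p = 0.00318, edgeR's quasi-likelihood test). Scaled by library size only, its log2 fold change was 0.27, and it was still called (adjusted p = 0.0261, edgeR). Its 4 processed copies held at most 23 counts in a library, against at least 4700 for NCOA4 itself.

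Of the export genes, SLC40A1, the only known iron exporter (ENSG00000138449, chromosome 2, 189560579 to 189583758, GRCh38), was barely detected. It had 9, 4 and 11 counts in Control and 20, 7 and 12 counts in Sev, or 0.0190 to 0.0895 FPKM, and the groups overlapped. Tested without the expression filter, its log2 fold change was 0.88 with an interval from −0.35 to 2.12 (adjusted p = 0.285, edgeR), so no difference was detectable at this depth.

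CP, which oxidizes the iron that ferroportin releases (ENSG00000047457, chromosome 3, 149162410 to 149222055, GRCh38), was also low. It had 69, 42 and 44 counts in Control and 13, 17 and 21 counts in Sev, or 1.63, 1.06 and 0.906 CPM against 0.345, 0.452 and 0.530 CPM. Every Sev library was under every Control library. The gene fell 2.69-fold, a log2 fold change of −1.43 with a standard error of 0.33 (adjusted p = 0.0100, edgeR's quasi-likelihood test). The value is uncertain, because CP shares 1418 exon bases with HPS3 on the opposite strand and no source used here says whether reads were counted by strand. HPS3 had 761 to 1538 counts per library and a log2 fold change of −0.34 (adjusted p = 0.0626, edgeR), with 23.6 to 31.7 CPM in Control and 20.2 to 22.6 CPM in Sev. The part of HPS3 reads in the CP counts was not tested. CPP, a pseudogene of CP, had 30 to 47 counts per library and was not called (log2 fold change 0.34, adjusted p = 0.320, edgeR).

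**Figure D2:**
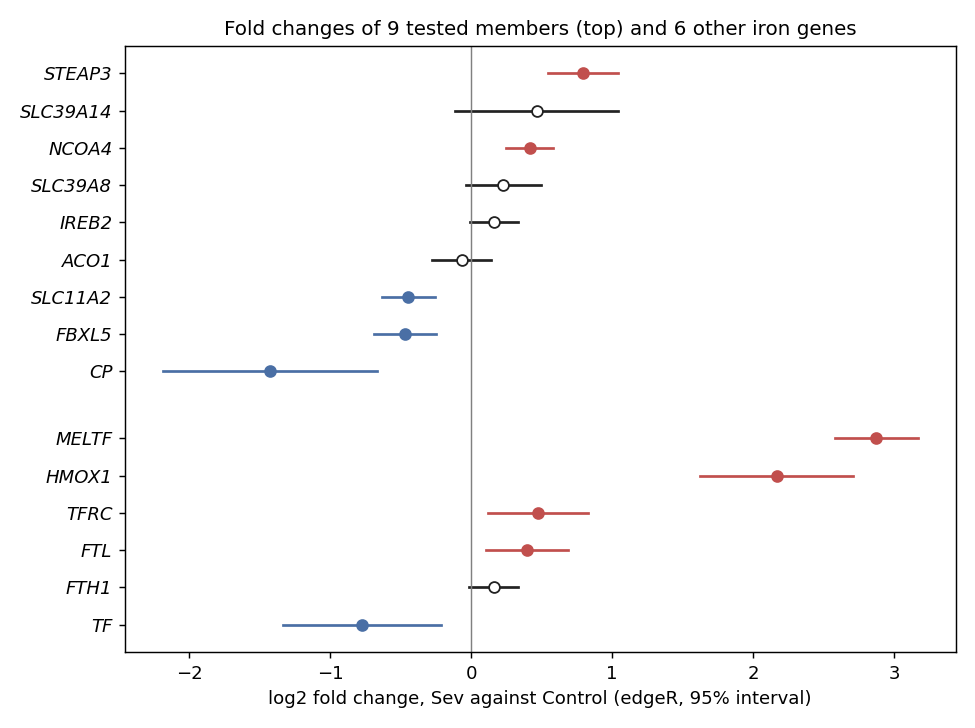
Log2 fold changes of Sev against Control with 95% intervals from edgeR for the 9 tested members (upper block) and for 6 other iron genes (lower block), where filled points were called at an adjusted p-value under 0.05 and open points were not. STEAP3 and NCOA4 lie right of 0, SLC11A2, FBXL5 and CP lie left of it, and the intervals of SLC39A14, SLC39A8, IREB2 and ACO1 cross it.

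Among the sensing genes, FBXL5, which marks IREB2 for degradation, was the one that was called (ENSG00000118564, chromosome 4, 15604539 to 15681679, GRCh38). It was at 98.7, 83.0 and 85.4 CPM in Control and at 67.7, 60.7 and 64.6 CPM in Sev, without overlap. It fell 1.38-fold, a log2 fold change of −0.47 with a standard error of 0.095 (adjusted p = 0.00573, edgeR's quasi-likelihood test). Its overlap with FAM200B on the opposite strand was 18 exon bases, and FAM200B was not called (log2 fold change −0.083, adjusted p = 0.703, edgeR).

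IREB2 (ENSG00000136381, chromosome 15, 78437431 to 78501456, GRCh38) was at 117, 127 and 118 CPM in Control and at 140, 132 and 134 CPM in Sev. The groups lay apart, but the log2 fold change of 0.16, with an interval from −0.0058 to 0.33, was not called (adjusted p = 0.106, edgeR). With library size only it was 0.024. ACO1, which is the cytosolic aconitase when it holds an iron-sulfur cluster (ENSG00000122729, chromosome 9, 32384603 to 32454769, GRCh38), was at 63.9, 67.1 and 67.8 CPM in Control and at 65.2, 56.7 and 67.7 CPM in Sev. The groups overlapped, and the log2 fold change was −0.068 with an interval from −0.28 to 0.14 (adjusted p = 0.574, edgeR). On the deposited FPKM all 3 Sev libraries of ACO1 were under all 3 Control libraries, but limma on log2(FPKM + 1) did not call it either (log2 fold change −0.19, adjusted p = 0.135).

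The ratios between the sensing genes differed between the groups, whatever the scaling. The FPKM of FBXL5 was 1.93, 1.50 and 1.66 times that of IREB2 in Control and 1.11, 1.06 and 1.11 times in Sev. The FPKM of IREB2 was 1.28, 1.32 and 1.22 times that of ACO1 in Control and 1.50, 1.62 and 1.38 times in Sev. In both pairs the groups did not overlap, with less FBXL5 per IREB2 and more IREB2 per ACO1 in every Sev library. In CPM, the groups did not overlap for 7 of the 9 tested members, beside 56.5% of all tested features and 57.8% of tested protein-coding genes. These ratios too were chosen after the values were seen and carry no test, and the share over other gene pairs was not computed.

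**Figure D3:**
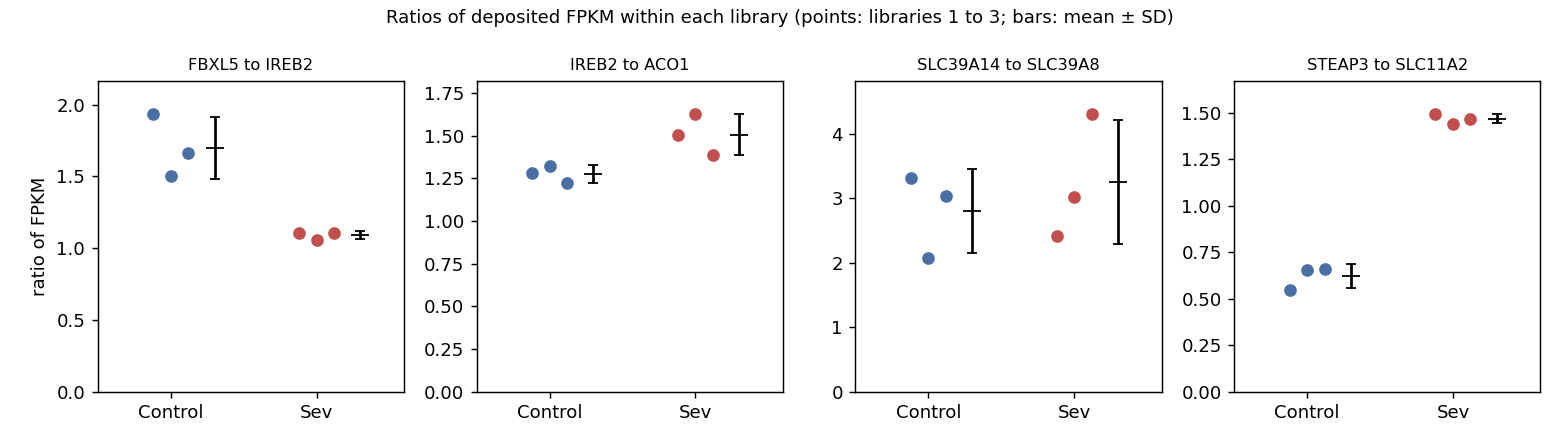
Ratios of the deposited FPKM of 2 genes within each of the 6 libraries, with a panel for each pair, a linear vertical axis from 0, points for the 3 Control and 3 Sev libraries and the mean ± SD of each group. The groups lie apart for FBXL5 to IREB2, IREB2 to ACO1 and STEAP3 to SLC11A2, and overlap for SLC39A14 to SLC39A8.

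By FPKM, a level per length, the members in Control ran from NCOA4 (24.6 ± 0.267, SD, n = 3) through FBXL5 (16.1 ± 1.87), IREB2 (9.51 ± 0.276), SLC39A14 (8.46 ± 1.84), ACO1 (7.46 ± 0.127), SLC11A2 (4.46 ± 0.224), SLC39A8 (3.03 ± 0.298) and STEAP3 (2.76 ± 0.151) to CP (0.137 ± 0.0454) and SLC40A1 (0.0329 ± 0.0121). SLC39A14 overlapped both of its neighbours in that order, IREB2 and ACO1, and SLC39A8 overlapped STEAP3. In Sev, NCOA4 was at 29.7 ± 2.38 FPKM (SD, n = 3), and SLC39A14 at 10.6 ± 4.04, FBXL5 at 10.6 ± 0.825 and IREB2 at 9.66 ± 0.506, each overlapping the next. ACO1 (6.46 ± 0.790) and STEAP3 (4.34 ± 0.366) came before SLC39A8 (3.23 ± 0.288) and SLC11A2 (2.96 ± 0.202), which overlapped each other. STEAP3 thus moved from the eighth to the sixth place of the order and SLC11A2 from the sixth to the eighth. The 2 export genes were under 0.2 FPKM in every library of both groups.

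The called members with the largest change in each direction among those with an entry in the RefSeq promoter table were STEAP3 and FBXL5, and their promoters (250 bases before to 50 after the start, GRCh38.p14) are printed for that reason. Used here were 15 promoters of 8 members. The table did not match CP, and no promoter of SLC39A14 was searched. Both strands were searched for ACGTG, the core that hypoxia-inducible factors bind, TGACNNNGC, the core of the antioxidant response element, and TGATGCAA, a composite site of ATF4, and capitals mark a match.
STEAP3: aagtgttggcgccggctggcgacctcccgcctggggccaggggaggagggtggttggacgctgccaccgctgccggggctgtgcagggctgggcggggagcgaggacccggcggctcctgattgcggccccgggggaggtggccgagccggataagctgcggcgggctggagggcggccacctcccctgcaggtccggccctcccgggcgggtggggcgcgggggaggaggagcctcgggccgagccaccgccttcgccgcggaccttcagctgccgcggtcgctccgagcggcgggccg
FBXL5: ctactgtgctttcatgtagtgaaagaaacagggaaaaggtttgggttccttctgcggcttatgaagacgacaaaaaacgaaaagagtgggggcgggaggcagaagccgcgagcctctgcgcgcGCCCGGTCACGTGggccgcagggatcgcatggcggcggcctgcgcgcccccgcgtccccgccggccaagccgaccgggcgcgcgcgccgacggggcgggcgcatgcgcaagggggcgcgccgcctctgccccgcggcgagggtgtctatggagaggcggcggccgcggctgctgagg
They lie at chr2:119223584-119223883 (plus strand) and chr4:15655308-15655607 (minus strand). STEAP3 held none of the 3 motifs in this window. FBXL5 held CACGTG, which reads the same on both strands and so holds ACGTG on each, overlapping a TGACNNNGC match on the minus strand. CACGTG was present in 7.26% of all promoters of the table and in 2 of the 15 member promoters. Binding by any factor was not tested. ACGTG was present in 21.4% of all 35116 promoters of the table, TGACNNNGC in 13.3% and TGATGCAA in 0.866%. Among the 15 member promoters, 4 held ACGTG, 2 held TGACNNNGC and 0 held TGATGCAA. By gene, 2 of the 8 members held ACGTG and 2 held TGACNNNGC. Promoters of SLC39A8 overlap each other, so the same site can count more than once.

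The wider iron genes were taken from 7 lists written from general knowledge. Together they held 111 genes beside the members, of which 102 were tested. Of these, 28 were higher and 15 were lower in Sev, or 42.2% called against the 43.7% of all tested features. Both counts were smaller with any single library left out, as given in the closing section. With library size only, the counts were 18 and 22. That scaling moved the median log2 fold change of all tested features by −0.14 and turned the split over all features from 6094 higher and 5920 lower to 4665 and 7502. The medians of the hepcidin list and of the other SLC39 transporters changed sign with it. The calls and directions of the 9 tested members did not change.

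Of the transferrin, ferritin and reductase list, 3 genes were higher and 3 were lower of 13 tested (46.2% called, near the 43.7% of all tested features), with a median log2 fold change of −0.20. With library size only, 1 was higher and 3 were lower, with a median of −0.35. MELTF, melanotransferrin, an iron-binding relative of transferrin on the cell surface, had the largest rise among them, from 9.43 ± 0.312 CPM (SD, n = 3) in Control to 69.2 ± 10.1 CPM in Sev, or 7.34-fold (adjusted p = 2.12e-05, edgeR). Its antisense neighbour MELTF-AS1, which shares 296 exon bases with it, was higher too (log2 fold change 1.51) but held only 86 to 301 counts. TFRC, the transferrin receptor, and FTL, the ferritin light chain, were higher by 0.47 and 0.40 on the log2 scale, FTH1, the heavy chain, was not called (0.16), and TF, transferrin, was lower by 0.77. FTH1 shares 1267 exon bases with BEST1 on the opposite strand, which had 40 to 157 counts and was not called. TF, with 30 to 77 counts per library, shares 191 exon bases with its pseudogene TFP1 and 112 with SRPRB, both on the same strand. TFP1 (5 to 36 counts) was also called lower (log2 fold change −1.40) and SRPRB (1078 to 1364 counts) was called higher (0.32), and the part of their reads in the TF counts was not tested. STEAP2, a metalloreductase of the same family as STEAP3, fell from 2.55 ± 0.376 to 0.674 ± 0.382 CPM (log2 fold change −1.92, adjusted p = 0.0045, edgeR), opposite to STEAP3. HEPH, hephaestin, a ferroxidase related to CP, was lower as CP was, with 6.28 ± 1.13 and 3.39 ± 1.06 CPM. The calls of TFRC and FTL each held without Control replicate 2 and were lost without any other single library, with adjusted p-values up to 0.126 and 0.109 (edgeR). Both calls were also lost with library size only (adjusted p = 0.0870 and 0.0910, edgeR), without the expression filter (0.0686 and 0.0599) and in the 3 limma fits (0.0863 to 0.156 and 0.158 to 0.279), and the groups of both genes overlapped in FPKM. The call of TF was lost without Control replicate 1 or 3 or Sev replicate 2 or 3 (adjusted p up to 0.0966, edgeR). That of HEPH was lost without Control replicate 1 or 3 or Sev replicate 1 or 3 (adjusted p up to 0.0743, edgeR). Over all alternative fits, the call of TF was lost in 7 of 13 and that of HEPH in 5 of 15.

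Of 9 tested genes of the list of mRNAs described as carrying an iron responsive element, 4 were higher and 0 were lower in Sev (44.4% called, beside 43.7% of all tested features, of which 22.1% were higher), with a median of 0.16. They include TFRC and FTL, and with library size only 1 of the 9 was higher, with a median of 0.017. EPAS1, which encodes HIF-2α, rose from 26.0 ± 1.19 to 36.8 ± 2.30 CPM (log2 fold change 0.50, adjusted p = 0.0039, edgeR). CDC14A, a phosphatase, was higher by 0.53, and its call was lost without Control replicate 1 or 2 or Sev replicate 2 or 3 (adjusted p up to 0.0755, edgeR). Over all alternative fits, the call of CDC14A was lost in 8 of 15. The list was written from general knowledge, and the strict search above matched CDC14A but not EPAS1. It also matched the 3′ UTR of 1 transcript of TF, a gene that is not on the list and was called lower. SLC11A2, where the looser search matched the 3′ UTR, was lower too.

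Of 14 tested partners of the sensing and ferritinophagy proteins, 8 were higher and 0 were lower (57.1% called), beside 22.1% higher and 21.5% lower over all tested features, with a median of 0.32. SKP1, a subunit of the ubiquitin ligase that FBXL5 serves, rose from 164 ± 7.99 to 245 ± 2.69 CPM (log2 fold change 0.58, adjusted p = 0.000713, edgeR), while FBXL5 fell. SKP1 shares 210 exon bases with TCF7 on the opposite strand, which had 654 to 2200 counts per library and was not called (log2 fold change 0.70, adjusted p = 0.208, edgeR). NEDD4L, a ubiquitin ligase of the family that regulates SLC11A2, rose from 38.1 ± 4.75 to 67.9 ± 5.77 CPM (log2 fold change 0.83, adjusted p = 0.00119, edgeR). With library size only, the list had 5 higher and 1 lower.

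The hepcidin list, which holds the genes that set ferroportin through the liver hormone hepcidin and the BMP receptors, had 3 higher and 1 lower of 10 tested (40% called, beside 43.7% of all tested features), with a median of 0.13. BMP6, the ligand that raises hepcidin when iron is high, rose from 4.72 ± 0.150 to 12.3 ± 2.88 CPM (log2 fold change 1.38, adjusted p = 0.000991, edgeR). BMPR1A, a receptor for it, rose by 0.64. HFE, a membrane protein that binds the transferrin receptor, was lower by 0.43, a call lost when any 1 of the 6 libraries was omitted (adjusted p from 0.0557 to 0.115, edgeR). Over all alternative fits, the call of HFE was lost in 9 of 15. HAMP and HJV did not pass the filter.

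Of 28 tested genes of mitochondrial iron and iron-sulfur cluster assembly, 8 were higher and 5 were lower (46.4% called, near the 43.7% of all tested features), with a median of 0.15. With library size only, 5 were higher and 6 were lower, with a median of 0.012. IBA57, which acts late in cluster assembly, rose from 19.2 ± 0.368 to 34.8 ± 3.24 CPM (adjusted p = 0.000576, edgeR), and HSPA9, the mitochondrial chaperone, from 304 ± 40.4 to 506 ± 43.6 CPM. NFS1, the cysteine desulfurase that supplies the sulfur, fell from 34.9 ± 5.15 to 19.7 ± 1.62 CPM (log2 fold change −0.83, adjusted p = 0.00206, edgeR), and MMS19, of the cytosolic targeting complex, fell by 0.48 on the log2 scale. NFS1 shares 88 exon bases with ROMO1 on the opposite strand and 289 with AL109827.1 on its own strand, neither of which was called.

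Of 21 tested heme genes, 2 were higher and 3 were lower (23.8% called, beside 43.7% of all tested features), with a median of −0.12, and with library size only 1 was higher and 7 were lower. HMOX1, heme oxygenase, which frees iron from heme, rose 4.49-fold, from 13.3 ± 3.54 to 59.9 ± 13.7 CPM (adjusted p = 0.000436, edgeR). Of the synthesis enzymes, CPOX fell from 15.1 ± 0.989 to 7.65 ± 0.680 CPM (log2 fold change −0.98) and PPOX from 18.5 ± 2.87 to 8.12 ± 1.17 CPM (log2 fold change −1.19). PPOX shares 1118 exon bases with B4GALT3 on the opposite strand, which was not called (log2 fold change −0.037). ALAS1, the first enzyme of the pathway, was higher by 0.27, a call lost when any 1 of the 6 libraries was omitted (adjusted p from 0.0518 to 0.134, edgeR). Over all alternative fits, the call of ALAS1 was lost in 13 of 15.

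Of 10 other SLC39 transporters tested, 2 were higher and 3 were lower (50% called, beside 43.7% of all tested features), with a median of 0.10. SLC39A4, the zinc importer of the gut, had 2.59 on the log2 scale from a low level, with 0.265 ± 0.0412 CPM in Control and 1.62 ± 0.470 CPM in Sev. It had 9 to 15 counts in Control and 43 to 74 in Sev, and AC233992.3, which shares 180 exon bases with it on the opposite strand and did not pass the filter, had 2 to 5 and 8 to 16. SLC39A7, a zinc channel of the endoplasmic reticulum, was higher by 0.41 and shares 244 exon bases with RXRB on the opposite strand, which was lower (−0.96). SLC39A9 fell from 88.2 ± 20.3 to 42.5 ± 1.05 CPM and shares 373 exon bases with ERH on the opposite strand, which was also called, but higher (0.43). SLC39A10 was lower by 0.40, a call lost without Control replicate 1 or 3 or Sev replicate 1 or 3 (adjusted p up to 0.0781, edgeR).

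**Figure D4:**
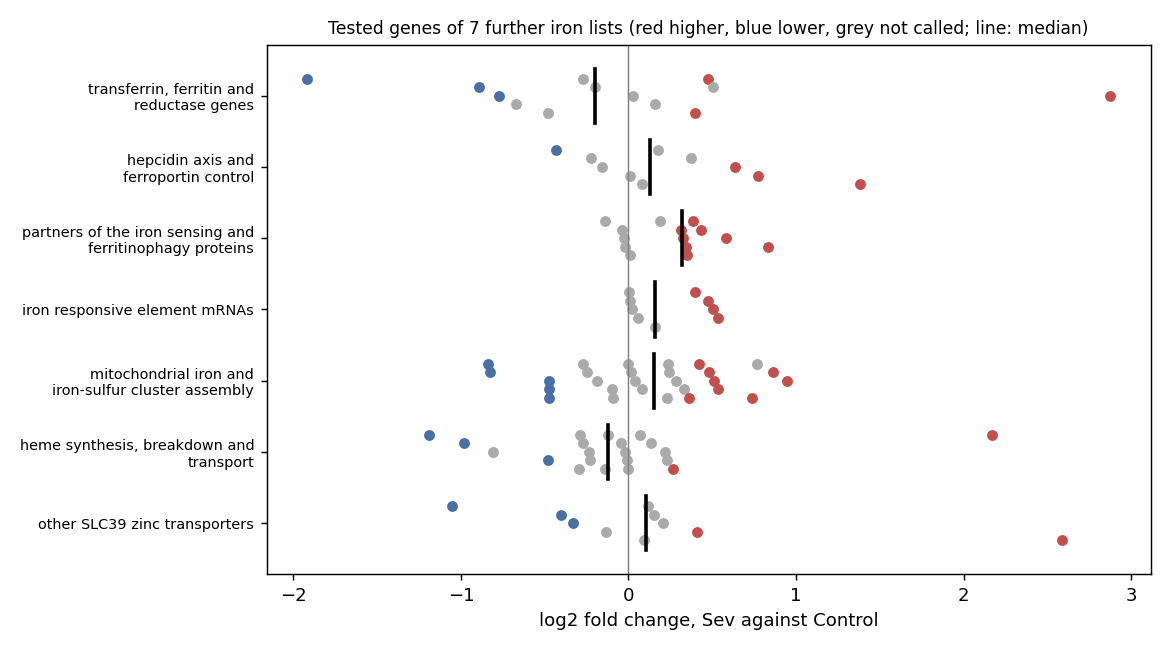
Log2 fold changes of Sev against Control for the tested genes of the 7 further iron lists, a row for each list, with red points for genes called higher, blue points for genes called lower, grey points for genes not called and a black line at the median. Genes lie on both sides of 0 in most lists, and MELTF (2.88), SLC39A4 (2.59) and HMOX1 (2.17) lie farthest to the right. The partners list and the iron responsive element list have called genes only on the right with TMM scaling.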

How the data were processed

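Libraries were made from rRNA-depleted RNA with a strand-specific protocol and sequenced in pairs, and they were grouped by their titles. The authors deposited raw counts per gene, and FPKM values for the same features, scaled by the authors per length and library. Per the labels, the processing notes name bcl2fastq 2.19, featureCounts and hg18 without roles. The identifiers are newer than hg18, and the strand setting is not given in the sources used here. Positions, exons and gene types were looked up by identifier in GENCODE 29 (GRCh38), which holds 58457 of 60564 Ensembl identifiers. The 932 MSTRG loci have no symbol. All 148 symbols of the members and lists matched.

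Counts were filtered with filterByExpr, scaled by TMM and compared by glmQLFTest after glmQLFit (edgeR 4.0.16, R 4.3.3), 3 libraries against 3, with no covariate. Benjamini-Hochberg adjustment covered all 27514 tested features, with a limit of 0.05. Standard errors are the absolute log2 fold change over the square root of F. Precision is limited by the 3 libraries per group and, for genes with few counts such as CP, SLC40A1, TF, STEAP2 and SLC39A4, also by depth. An exact permutation test of 3 against 3 cannot go under 0.1, so none was used.

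The members, the 7 gene lists and the 2 marker lists were chosen with earlier results of these data known. Named were all members, TF, TFRC, FTH1 and FTL, and per list the 2 genes with the smallest p-value among those called in each direction. Genes named as overlapping neighbours or markers stand outside that rule. Alternatives were DESeq2 1.42.0 (size factors or its Wald test), library size only, 2 expression filters, a block for replicate number, omission of each library, and limma 3.58.1 on log2(FPKM + 1) or log2(FPKM + 0.1), with FPKM of at least 0.5 in 3 libraries or unfiltered.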

Additional observations from a re-analysis of the deposited data

How the results depend on the processing

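The counts of called members were 2 higher and 3 lower under each alternative, except that CP had too low FPKM for the filtered limma fits, which left 2 lower. Of 133 values of the 9 tested members under the alternatives, 132 kept their direction and their side of the limit. The exception was ACO1, not called in any fit, whose log2 fold change was 0.0078 without Sev replicate 2, −0.12 without Sev replicate 3 and at its lowest −0.21, with limma on log2(FPKM + 0.1). Adjusted p-values ran up to 0.00785 for STEAP3, 0.0399 for NCOA4, 0.0161 for SLC11A2, 0.0179 for FBXL5 and 0.0475 for CP. The other named genes kept their direction in all of 383 values and lost the call in 66. In the other iron lists, 18 genes were higher and 22 lower with library size only, 17 and 21 with limma on log2(FPKM + 1), 18 and 20 on log2(FPKM + 0.1), and 15 and 16 on log2(FPKM + 1) without the filter, against 28 and 15. Over all features, 3676 were higher and 6709 lower with limma on log2(FPKM + 1), and 3623 and 6530 on log2(FPKM + 0.1), against 6094 and 5920. These scales hold no TMM factor. With a library left out, the other iron lists had 18 to 23 genes higher and 8 to 12 lower. The labels do not say whether the replicate number marks a shared culture. The deviations of same-numbered libraries correlated by −0.0072, 0.0035 and 0.027, and those of differently numbered libraries by −0.0383 to 0.0319. With the number as a replicate block, members were again 2 higher and 3 lower, the other lists 22 higher and 13 lower, and all features 5228 and 5021. The 3 libraries per group, the unstated strand setting and, for genes such as CP, SLC40A1, TF, STEAP2 and SLC39A4, the low counts limit the results.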
